A study of Mus musculus with 8 samples.

Results

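Ifng, Tnf, Lta, Ltb and Il2, the mouse genes of interferon gamma, tumour necrosis factor, lymphotoxin alpha, lymphotoxin beta and interleukin-2, were followed through bulk RNA sequencing of lung group 2 innate lymphoid cells (ILC2s) and spleen CD8 T cells. The genes were matched by symbol, and are 5 of the 19805 genes in the series. All 5 are among the 17642 genes of the CD8 T cell table and 4 are among the 18389 genes of the ILC2 table. Il2 is not in the ILC2 table and was not analysed in ILC2s here. There were 4 groups of 2 libraries, all of primary cells labelled wild type (WT): ILC2s co-cultured with CD8 T cells, ILC2s cultured alone, CD8 T cells co-cultured with ILC2s, and CD8 T cells cultured alone. Co-culture lasted 3 days at 5 CD8 T cells to 1 ILC2, after which the cells were sorted by flow cytometry. The sources used here do not give the sort gates, any stimulus or antigen in the medium, the age and strain of the mice, or whether replicates were separate cultures or animals. The p-values thus measure the spread between these libraries, and that spread may be technical. The study's question was whether ILC2s activate CD8 T cells directly, and the cytokine genes were read as co-cultured against alone in each cell type.

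Interferon gamma is the main macrophage-activating and antiviral cytokine of CD8 T cells, and signals through a receptor of the chains IFNGR1 and IFNGR2. TNF and lymphotoxin alpha form trimers that bind TNF receptors 1 and 2, whereas lymphotoxin alpha with lymphotoxin beta forms a membrane complex that binds the lymphotoxin beta receptor and drives non-canonical NF-kB signalling. Interleukin-2 is the T cell growth factor, made by newly activated T cells and read by a receptor of alpha, beta and common gamma chains. ILC2s are tissue lymphocytes without antigen receptors, known for interleukin-5 and interleukin-13 rather than for interferon gamma, and they carry the interleukin-2 receptor.

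Positions are from GENCODE vM21 on GRCm38, the assembly of mm10, and all 5 genes are protein-coding. Ifng (ENSMUSG00000055170.4) lies on the plus strand of chromosome 10 from 118441046 to 118445892. Il2 (ENSMUSG00000027720.7) lies on the minus strand of chromosome 3 from 37120523 to 37125959 and overlaps Adad1 on the other strand, so that without a stated strand setting their reads cannot be told apart there. Ltb (ENSMUSG00000024399.5, plus strand, 35194439 to 35196320), Tnf (ENSMUSG00000024401.14, minus strand, 35199381 to 35202007) and Lta (ENSMUSG00000024402.5, minus strand, 35203165 to 35205351) are neighbours on chromosome 17. Ltb and Tnf are 3060 bases apart, and Tnf and Lta are 1157 bases apart.

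The 3′ untranslated region of a cytokine mRNA is where AU-rich elements, runs of the pentamer ATTTA bound by decay factors such as tristetraprolin, are found. It is shown because the genes differ in it. In the GENCODE transcripts, ATTTA occurred 6 times in 631 untranslated bases of Ifng, 8 times in 764 bases of Tnf, 3 times in 572 bases of Lta and 7 times in 581 bases of Il2. It did not occur in the 156 bases of Ltb. Of 20836 mouse genes, 35.1% had none, the median was 1, and 16.7%, 10.4%, 35.4% and 13.1% had at least as many as Ifng, Tnf, Lta and Il2. The median length was 942 bases, longer than in any of the 5 genes. By matches per base, 1.42%, 1.10%, 6.95% and 0.739% of genes were at least as dense as Ifng, Tnf, Lta and Il2. The 30 bases with the most matches are given 5′ to 3′ with ATTTA in capitals, from chr10:118445330-118445359 (plus strand, Ifng), chr17:35199679-35199708 (minus, Tnf), chr17:35203408-35203437 (minus, Lta) and chr3:37121040-37121069 (minus, Il2). A match is only a run of letters here, and no binding or decay was measured.
Ifng: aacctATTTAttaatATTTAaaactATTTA
Tnf: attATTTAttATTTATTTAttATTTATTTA
Lta: tATTTAtggagagaaaagttaagttATTTA
Il2: ctATTTATTTAaatATTTAactttaATTTA

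The promoters of the 3 neighbours on chromosome 17 are shown because these genes did not move together. They are the bases just before the RefSeq start on GRCm38.p6, 5′ to 3′ on the gene's strand: chr17:35202008-35202257 (minus, Tnf), chr17:35205352-35205601 (minus, Lta) and chr17:35194257-35194438 (plus, Ltb). The Ltb stretch stops where GENCODE begins its transcript. Capitals mark matches, on either strand, to TATAAA (bound by TBP), GGAAAA (NFAT core), TGANTCA (AP-1), AGGTGT (T-box core) and 3 NF-kB-like motifs. These are GGGNNTTCC, GGGNNNTCC and a longer form with 1 more N than the last.
Tnf: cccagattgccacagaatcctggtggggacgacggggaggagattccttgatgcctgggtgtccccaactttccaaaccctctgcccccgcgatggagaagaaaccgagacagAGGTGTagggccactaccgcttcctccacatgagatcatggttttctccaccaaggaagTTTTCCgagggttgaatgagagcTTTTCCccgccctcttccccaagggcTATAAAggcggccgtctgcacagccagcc
Lta: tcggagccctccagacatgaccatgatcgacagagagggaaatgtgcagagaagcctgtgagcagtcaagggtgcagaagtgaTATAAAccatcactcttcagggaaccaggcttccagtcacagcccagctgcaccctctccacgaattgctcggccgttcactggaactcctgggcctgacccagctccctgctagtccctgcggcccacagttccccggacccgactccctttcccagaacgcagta
Ltb: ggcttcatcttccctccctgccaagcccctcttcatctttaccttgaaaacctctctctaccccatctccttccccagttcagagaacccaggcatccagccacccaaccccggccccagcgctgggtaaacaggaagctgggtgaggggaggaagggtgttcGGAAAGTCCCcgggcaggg

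Tnf held TATAAA at position -29 from its start, GGAAAA at positions -78 and -55 (written TTTTCC, its other strand), and AGGTGT at position -137. Lta held only TATAAA, at position -167. Ltb held the longer NF-kB-like form at position -87 and AGGTGT at position -65, which lies past the end of the printed stretch, and no TATAAA. Of 32851 mouse promoter windows of 250 bases, 12.4% held TATAAA, 20.4% GGAAAA, 11.8% AGGTGT and 16.5% the longer NF-kB-like form. The motifs TGANTCA (6.75% of windows), GGGNNTTCC (4.98%) and GGGNNNTCC (15.2%) were in none of the 5 genes' windows. Ifng and Il2 held TATAAA at positions -30 and -31, and Il2 also held GGAAAA at positions -137 and -48. These matches are descriptions of the letters and not evidence of binding.

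Library totals ran from 48072595 to 67076905 reads. CPM is the read count scaled to that total (counts per 1000000 reads), and log2 changes are edgeR's fitted values with its scaling. The ILC2 libraries labelled alone held more RNA of other lineages than those labelled co-cultured. The summed level of 12 T cell markers was 257 and 299 CPM in co-cultured ILC2s, against 1758 and 1648 CPM in ILC2s alone, and all 12 fell. The summed level of 16 ILC2 markers was 8999 and 8725 CPM in co-cultured ILC2s, against 3807 and 3804 CPM in ILC2s alone, with 14 higher and 1 lower. Markers of stroma and epithelium summed to 314 and 301 CPM in co-cultured ILC2s, against 3725 and 4037 CPM in ILC2s alone (7 of 9 listed, 2 higher, 5 lower). For monocytes and macrophages the sums were 17.0 and 21.1 CPM in co-cultured ILC2s, against 313 and 319 CPM in ILC2s alone. All 5 of the 12 that are listed fell, and Mrc1, Marco, C1qa and C1qb, which define tissue macrophages, are among the 7 not listed. A gene without reads in even 1 of the ILC2 libraries is not listed. Being unlisted thus does not show that a gene was absent from ILC2s alone. For NK cells the sums were 2.74 and 2.79 CPM in co-cultured ILC2s, against 46.1 and 43.8 CPM in ILC2s alone, with 4 of 4 listed genes lower and Ncr1 not listed. B cell markers summed to 644 and 593 CPM in co-cultured ILC2s, against 1830 and 1745 CPM in ILC2s alone (1 higher and 3 lower of 8). ILC3 markers summed to 7.34 and 9.69 CPM in co-cultured ILC2s, against 75.2 and 59.2 CPM in ILC2s alone (3 of 3 listed genes lower). In the CD8 T cell libraries, T cell markers summed to 7240 and 7232 CPM in co-cultured cells, against 5818 and 5988 CPM in cells alone, with 5 higher and 4 lower of 12. Stroma and epithelium markers rose there to 167 and 164 CPM from 54.2 and 57.4 CPM alone (3 higher and 1 lower of 4 tested). B cell markers were at 178 and 174 CPM, against 259 and 251 CPM alone (1 lower of 4 tested). ILC2 markers there summed to 237 and 262 CPM in co-cultured cells, against 246 and 248 CPM in cells alone. The level sum hides changes both ways, with 2 higher and 8 lower of 12 tested and a median log2 change of -1.31. Mean Rora was 142 CPM in co-culture against 45.3 CPM alone, and Bmp7 10.5 against 1.85. Il5 was at 0.675 CPM against 10.2, and Ccr8 at 10.5 against 61.0. In bulk RNA, fewer cells of a type and less RNA per cell cannot be told apart. The part of these marker differences in the ILC2 results was not tested. Where a value is given on the scale of the ILC2 markers, the ILC2 libraries were scaled to those markers in place of all genes. This shifted the median log2 change of all genes in ILC2s to -1.39. Of all 16739 genes tested there, 674 were then called higher and 12805 lower. Counts of list genes on that scale are to be read beside this share, and a majority lower is the share of all genes. The scale sets the markers' joint level equal in all ILC2 libraries, but they did not move together. In co-cultured ILC2s against ILC2s alone, mean Il5 was 1493 against 328 CPM, Calca 146 against 127 and Hs3st1 81.1 against 135. Whether marker RNA per ILC2 stayed constant was not tested, so this scale cannot decide which value is right.

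In CD8 T cells all 5 cytokine genes fell in co-culture, by between 0.61 and 4.66 on the log2 scale, and in ILC2s Ifng and Tnf fell while Lta and Ltb rose, the rise of Lta being lost on the scale of the ILC2 markers. Of all 15948 genes tested in CD8 T cells 60.9% passed an adjusted p of 0.05, with 30.2% higher and 30.7% lower, and the median log2 change was -0.01. Of the 16739 genes tested in ILC2s 66.3% passed, with 31.8% higher and 34.4% lower, and the median log2 change was also -0.01. With so many genes called in each table, the fact that a member passed says little, and its direction and size are the description.

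**Figure D1:**
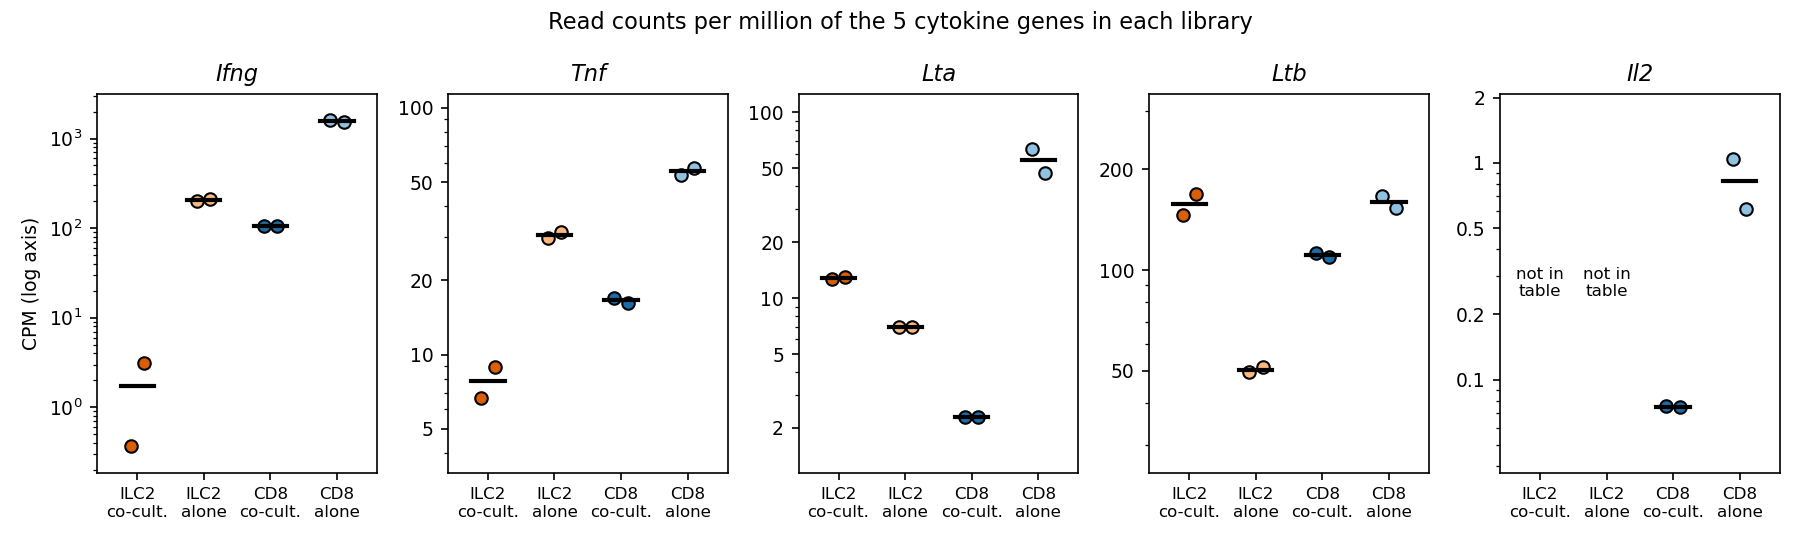
Scaled read counts (CPM, log axis, a different range in each panel) of the 5 cytokine genes in each library. Points are the 2 libraries of a group and the bar is their mean. In CD8 T cells the mean of every gene is lower in co-culture, and in ILC2s the CPM of Lta and Ltb is higher in co-culture (on the scale of the ILC2 markers Lta was at -0.28 in log2).

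Ifng had 0.371 and 3.12 CPM in co-cultured ILC2s, against 203 and 210 CPM in ILC2s alone. CD8 T cells had 105.7 and 106.0 CPM in co-culture, against 1591 and 1513 CPM in cells alone. The 2 co-cultured ILC2 libraries, with 18 and 150 reads, lie 8.40-fold apart and both are far below every other library. The log2 change in CD8 T cells was -3.95 (SE 0.08, adjusted p = 4.6e-12 by edgeR's quasi-likelihood test with Benjamini-Hochberg adjustment). The log2 change in ILC2s was -6.69 (SE 0.49, adjusted p = 3.3e-07). That size rests on which co-cultured ILC2 library is used: it was -5.90 without replicate 1 and -8.86 without replicate 2. The summed T cell markers were at 257 CPM in replicate 1 and 299 CPM in replicate 2, a sum carried largely by Cd3g, Trbc1 and Trbc2. The ratio of replicate 2 to replicate 1 ran from 0.764 (Themis) to 1.68 (Cd8b1) over the 12 markers. Other lymphocyte genes went both ways. Klre1, a receptor gene of NK cells, was at 4 reads in replicate 1 and 27 in replicate 2, and the chemokine gene Xcl1 at 17 and 50. Eomes, also on the NK cell list, was at 54 and 41 reads, and that list summed to 2.74 and 2.79 CPM. The cause of the gap in Ifng between these libraries was not tested.

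Tnf had 6.64 and 8.92 CPM in co-cultured ILC2s, against 29.8 and 31.3 CPM in ILC2s alone. CD8 T cells had 17.0 and 16.2 CPM in co-culture, against 53.5 and 57.2 CPM in cells alone. The order of the groups was the same as for Ifng. Tnf fell by 1.81 on the log2 scale in CD8 T cells (SE 0.09, adjusted p = 6.5e-09) and by 1.76 in ILC2s (SE 0.16, adjusted p = 1.7e-06).

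Lta had 12.7 and 13.0 CPM in co-cultured ILC2s, against 7.00 and 6.95 CPM in ILC2s alone. CD8 T cells had 2.30 and 2.30 CPM in co-culture (152 and 154 reads), against 63.1 and 47.0 CPM in cells alone. It was thus high in CD8 T cells alone and lowest in the same cells from co-culture, with the ILC2 libraries in between. The fall of 4.66 in CD8 T cells (log2, SE 0.15, adjusted p = 2.4e-10) was the deepest of the 5 genes there. Lta rose by 1.10 in ILC2s (log2, SE 0.16, adjusted p = 6.8e-05), but when the libraries were scaled to the ILC2 markers the value was -0.28 (adjusted p = 0.13).

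Ltb had 146 and 169 CPM in co-cultured ILC2s, against 49.5 and 51.2 CPM in ILC2s alone. CD8 T cells had 112 and 110 CPM in co-culture, against 167 and 153 CPM in cells alone. Co-cultured ILC2s and CD8 T cells alone overlapped in Ltb, and ILC2s alone were the lowest. It fell by 0.61 in CD8 T cells (log2, SE 0.07, adjusted p = 1.0e-05), the shallowest fall of the 5. It rose by 1.85 in ILC2s (log2, SE 0.12, adjusted p = 1.4e-07), and by 0.48 when scaled to the ILC2 markers (adjusted p = 0.0028).

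Il2 had 0.0756 and 0.0745 CPM in co-cultured CD8 T cells, against 1.04 and 0.613 CPM in cells alone. These are 5 and 5 reads in co-culture (exact Poisson 95% interval 1.62 to 11.7 reads for each), against 55 and 35 reads in cells alone (41.4 to 71.6 and 24.4 to 48.7). The intervals, which cover counting error only, do not overlap, although all 4 values are low. The log2 change was -3.50 (SE 0.49, adjusted p = 4.3e-05), and with so few reads its size is the least certain of the 5.

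**Figure D2:**
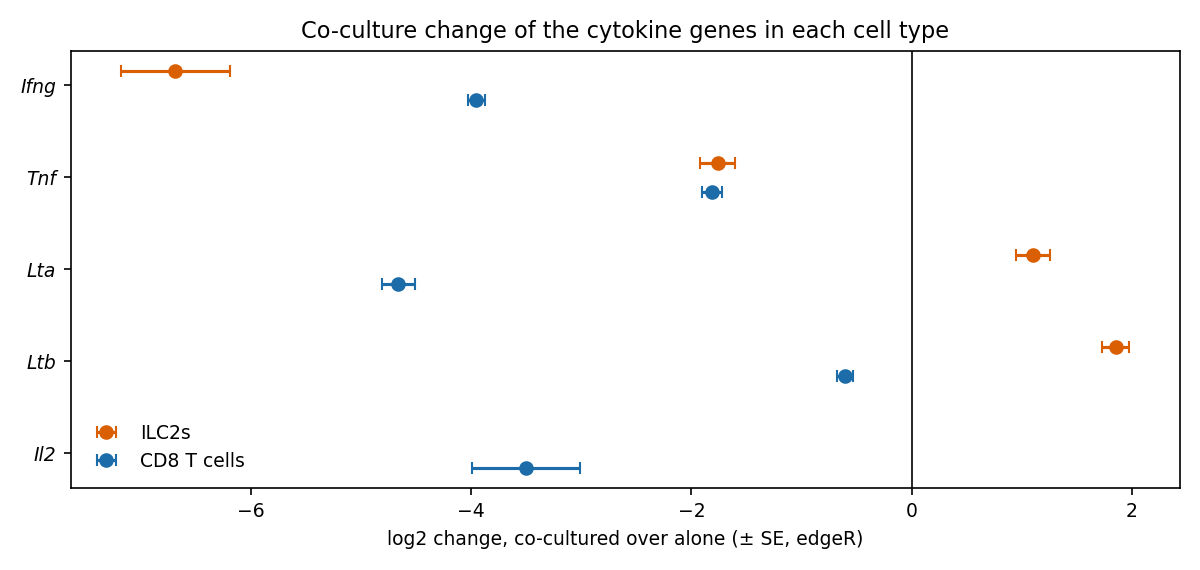
Log2 change of each cytokine gene, co-cultured over alone (x axis), with SE from edgeR, in ILC2s (orange) and CD8 T cells (blue). Ifng and Tnf lie left of 0 in both cell types, Lta and Ltb lie on opposite sides of 0 (Lta was at -0.28 in ILC2s on the scale of the ILC2 markers), and Il2 has a value in CD8 T cells only.

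An interaction term in the joint fit of the 8 libraries compared the responses of the cell types, and 53.6% of 15532 genes passed (21.0% higher in ILC2s and 32.6% lower). Of the 4 members measured in both cell types, 3 passed. Ifng fell more deeply in ILC2s than in CD8 T cells (log2 difference -2.89, SE 0.45, adjusted p = 5.5e-05), and this difference was -2.10 without co-cultured ILC2 replicate 1 and -5.08 without replicate 2. The log2 change of Lta was 5.60 higher in ILC2s (SE 0.22, adjusted p = 6.3e-12), and that of Ltb was 2.30 higher (SE 0.14, adjusted p = 9.8e-10). For Tnf the difference was -0.11 (SE 0.18, adjusted p = 0.64), which does not show that the 2 cell types responded alike. On the scale of the ILC2 markers, where the median of all genes in this test is -1.33 (-0.12 with TMM scaling), the difference for Tnf was -1.31 (adjusted p = 7.6e-06).

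Between the cell types, cell type, tissue of origin and count table cannot be told apart. In co-culture, 69.4% of 15532 genes differed (32.9% higher in ILC2s and 36.5% lower) and so did 4 of 4 members, with Ifng and Tnf lower in ILC2s and Lta and Ltb higher. The log2 value of ILC2s over CD8 T cells was -5.77 for Ifng (SE 0.37, adjusted p = 7.9e-10) and -0.93 for Tnf (SE 0.13, adjusted p = 1.1e-05). The Ifng value was -4.97 without co-cultured ILC2 replicate 1 and -7.96 without replicate 2. The value was 2.65 for Lta (SE 0.16, adjusted p = 3.4e-10) and 0.66 for Ltb (SE 0.09, adjusted p = 1.1e-05). On the scale of the ILC2 markers Ltb was at 0.06 (adjusted p = 0.56), where the median of all genes was -0.64. That scale moved the ILC2 libraries only, around their own mean, so it sets no common zero with the CD8 T cells. It therefore cannot decide whether a member differs between the cell types. In cells cultured alone, 63.2% of genes differed (32.8% higher in ILC2s and 30.4% lower), and all 4 members were lower in ILC2s: Ifng by 2.88, Tnf by 0.83, Lta by 2.95 and Ltb by 1.64 on the log2 scale. Of these, Tnf missed the threshold on the scale of the ILC2 markers (-0.22, adjusted p = 0.12), with the same limit. The median of all genes was 0.61 there.

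As a percentage of the CD8 T cell level, the ILC2 level can be set beside that of the 12 T cell markers. In co-culture the markers stood at 0.675% to 15.9% with a median of 1.65%, with Cd8a lowest. On this scale the mean of Ifng stood at 1.65%, while Tnf at 46.8%, Ltb at 142% and Lta at 561% stood above all 12. The value of Ifng rests on 1 library. It was 0.351% in co-cultured ILC2 replicate 1, below all 12 markers of that library (0.596% to 14.6%), and 2.95% in replicate 2, within their range (0.711% to 17.3%). In cells alone the markers stood at 12.4% to 44.1% with a median of 25.4%, with Cd8a highest. There Ifng at 13.3%, Lta at 12.7% and Ltb at 31.5% were within that range and Tnf at 55.2% was above it. In the other direction, 13 ILC2 markers in CD8 T cells had a median of 0.233% of the ILC2 level in co-culture and 3.11% in cells alone. What part of the Ifng reads of the ILC2 libraries came from T cells was not tested.

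**Figure D3:**
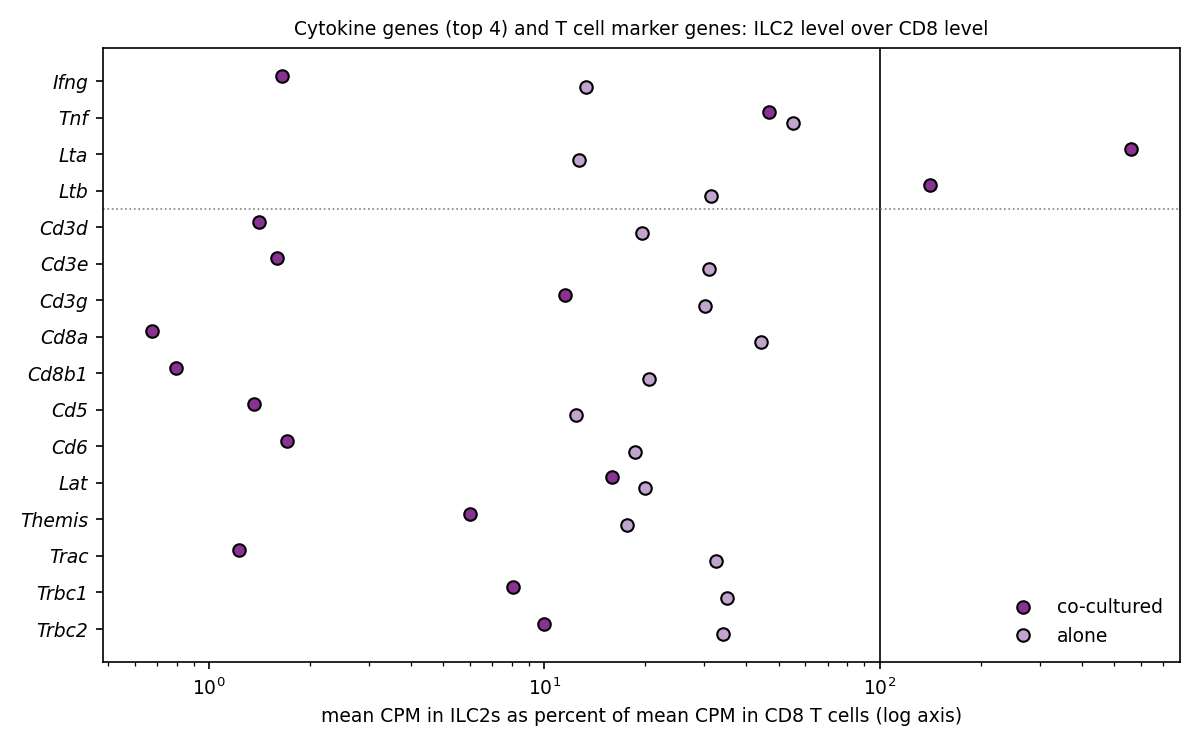
Mean CPM in ILC2s as a percentage of mean CPM in CD8 T cells (log axis) for the 4 cytokine genes in both tables (above the dotted line) and 12 T cell markers (below it), in co-culture (dark) and alone (light). The line at 100% marks equal levels. In co-culture Lta and Ltb lie right of the line and Tnf lies right of all 12 markers.

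The 4 groups can be ordered for each gene, with neighbours compared in the fit of all 8 libraries. For Ifng the order was CD8 T cells alone, ILC2s alone, co-cultured CD8 T cells and co-cultured ILC2s, and each neighbour differed from the next. The closest step was ILC2s alone over co-cultured CD8 T cells (log2 1.07, adjusted p = 0.0025). Tnf had the same order, with each step beyond the spread and a log2 difference of 0.98 at that step (adjusted p = 4.4e-06). Lta ran from CD8 T cells alone through co-cultured ILC2s and ILC2s alone to co-cultured CD8 T cells, and each step passed. For Ltb the highest groups, co-cultured ILC2s (157 ± 16.1 CPM, SD, n = 2) and CD8 T cells alone (160 ± 9.94 CPM, SD, n = 2), could not be separated, with a fitted log2 value of 0.06 for the ILC2s over the CD8 T cells (SE 0.09, adjusted p = 0.55 by edgeR). Co-cultured CD8 T cells and then ILC2s alone followed, each lower than the group before.

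The composition of the cytokine RNA shifted with these changes. Levels are compared between genes as mean CPM per kilobase of exon. In co-cultured ILC2s Ltb came first at 104 CPM per kb, then Lta at 9.31, Tnf at 4.75 and Ifng at 1.35. In ILC2s alone Ifng came first at 159 CPM per kb, then Ltb at 33.2, Tnf at 18.6 and Lta at 5.04. In co-cultured CD8 T cells the order was Ifng at 81.7 CPM per kb, Ltb at 73.3, Tnf at 10.1, Lta at 1.66 and Il2 at 0.0656. In CD8 T cells alone it was Ifng at 1198 CPM per kb, Ltb at 105.5, Lta at 39.8, Tnf at 33.7 and Il2 at 0.724. Ltb thus led in co-cultured ILC2s and Ifng in the other groups. Lta was below Tnf in both libraries of co-cultured CD8 T cells, at 1.66 CPM per kb in each against 10.4 and 9.91 for Tnf. In CD8 T cells alone the order of the pair differed between libraries, with Lta at 45.6 and 34.0 CPM per kb and Tnf at 32.6 and 34.9. Of the summed CPM of the members, Ifng held 0.224% and 1.61% in co-cultured ILC2s, against 70.2% in each library of ILC2s alone. Its share in CD8 T cells was 44.5% and 45.2% in co-culture, against 84.8% and 85.4% in cells alone. The ratio of Ltb to Lta reads, the partners of the membrane lymphotoxin complex, was 11.5 and 12.9 in co-cultured ILC2s, against 7.08 and 7.37 in ILC2s alone. The ratio in CD8 T cells was 48.9 and 47.8 in co-culture, against 2.65 and 3.25 in cells alone.

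The 3 neighbours on chromosome 17 differed from each other in both cell types. In CD8 T cells all 3 fell, Lta by 4.66, Tnf by 1.81 and Ltb by 0.61 on the log2 scale. In ILC2s Tnf, which lies between the other two, fell by 1.76, while Ltb rose by 1.85 and Lta by 1.10 (Lta -0.28 and not called on the scale of the ILC2 markers). Around them lie 7 other protein-coding genes of the tables within 60000 bases of the Tnf start, chosen by position after the values were seen. Their log2 changes ran from -1.16 (Ddx39b, an RNA helicase) to 0.32 (Nfkbil1) in CD8 T cells. In ILC2s they ran from -1.38 (Ddx39b) to 2.08 (Lst1, at a mean of 1.78 CPM in co-culture). The fall of Lta in CD8 T cells was deeper than any change among these 7.

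**Figure D4:**
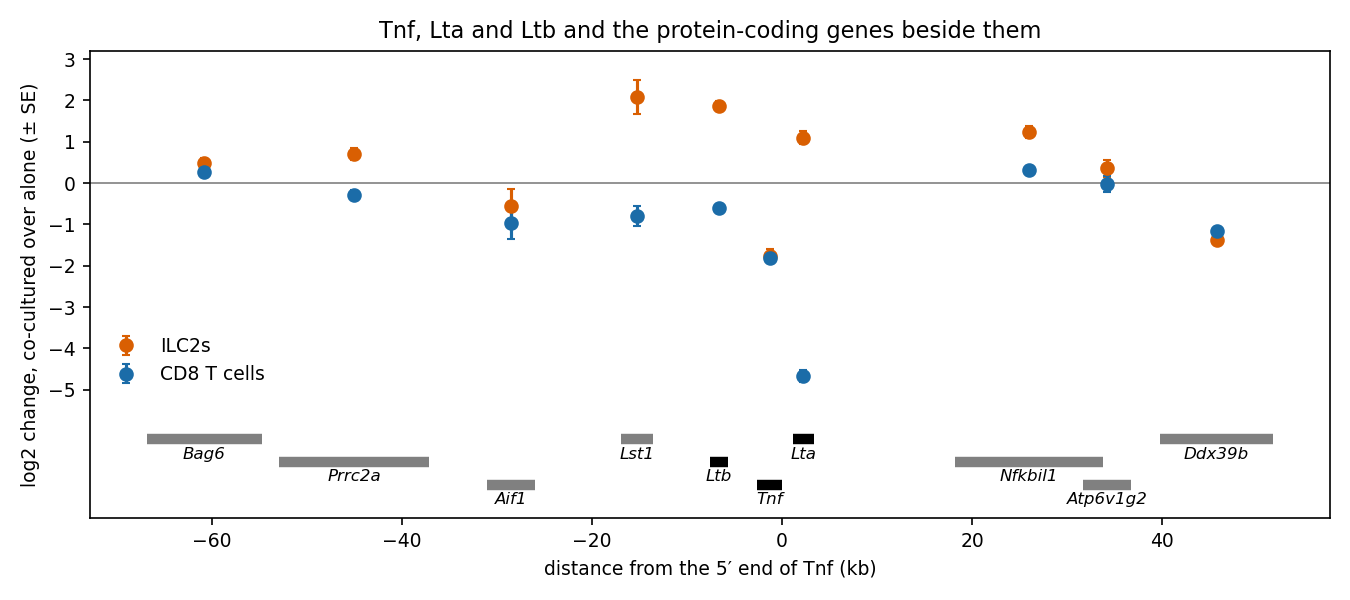
Log2 change, co-cultured over alone, with SE, of protein-coding genes by distance in kb from the 5′ end of Tnf, in ILC2s (orange) and CD8 T cells (blue). Bars below show each gene's extent, with the members in black. Tnf has nearly the same value in both cell types, while the points of Lta and Ltb lie apart.

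Each member was also set against all other genes by the likeness of its profile, as the root mean square difference of log2 CPM after centring each gene on its own mean. Over 8 libraries and 14923 genes, the nearest to Ifng were Xcl1 (0.99) and Ccl3 (1.24), chemokines of activated lymphocytes, and Batf3 (1.30), an AP-1 family factor, where Ifng itself varied by 3.90 on this measure. The nearest to Tnf, with its own variation at 1.06, were Psmb3 (0.11), a proteasome subunit, Rps27l (0.11) and Gm13552 (0.14). The nearest to Lta, at a variation of 1.65, were Grhl3 (0.53), Stc2 (0.55) and Ciart (0.64). Grhl3 was low, at a mean of 0.507 CPM in co-cultured ILC2s and 0.246 CPM in ILC2s alone. In CD8 T cells it was at 0.172 CPM in co-culture and 2.45 CPM alone. The nearest to Ltb, at a variation of 0.68, were Gm5507 (0.11), LOC115487111 (0.12) and Gm16470 (0.13). For Il2 over 4 libraries and 15991 genes they were Akr1c12 (0.09), Tmem176b (0.14) and Ccl9 (0.16), where its own variation was 1.67. Akr1c12 and Tmem176b were also low, each at a mean of 0.293 CPM in co-cultured CD8 T cells. In CD8 T cells alone they were at 2.99 and 2.67 CPM.

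List counts here and below are to be read beside the share of all genes called. With TMM scaling that share was 30.2% higher and 30.7% lower in CD8 T cells. In ILC2s it was 31.8% higher and 34.4% lower. Of 11 other cytokine and ligand genes tested in CD8 T cells 4 rose and 7 fell, with a median log2 change of -0.72. Csf2, the gene of GM-CSF, had 0.529 and 0.567 CPM in co-cultured CD8 T cells, against 92.6 and 49.2 CPM in cells alone, and fell by 7.09 on the log2 scale (SE 0.31, adjusted p = 2.6e-09). Il3, a growth factor of myeloid cells, fell by 4.87 and Xcl1 by 1.51. Tnfsf10, the gene of TRAIL, rose by 1.82, Ccl5 by 1.38 and Il21 by 1.39, which missed the threshold in DESeq2 (adjusted p = 0.083). Not every ligand gene was lower in co-cultured CD8 T cells. In ILC2s 2 of 11 rose and 8 fell, with a median of -4.36 (1 and 9 on the scale of the ILC2 markers). Il10 had 22.9 and 26.1 CPM in co-cultured ILC2s, against 3.34 and 4.04 CPM in ILC2s alone, and rose by 2.95. Tnfsf11, the gene of RANKL, rose by 1.16 but was not called on the scale of the ILC2 markers (-0.22, adjusted p = 0.089). Ccl3 had 1.46 and 2.18 CPM in co-cultured ILC2s, against 324 and 355 CPM in ILC2s alone. Ccl3 fell by 7.33, Ccl4 fell by 6.89 and Xcl1 fell by 7.26, beside the fall of the NK and macrophage markers given above.

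Among the receptors, 5 of 9 chains rose and 2 fell in CD8 T cells, with a median log2 change of 0.79. Ifngr1, the ligand-binding chain for interferon gamma, had 1527 and 1508 CPM in co-cultured CD8 T cells, against 334 and 377 CPM in cells alone, and rose by 2.01 (SE 0.08, adjusted p = 1.3e-09). Ifngr2, the signalling partner, rose by 1.54, so that both chains were higher where Ifng itself was lower. Both TNF receptors rose, Tnfrsf1a by 1.16 and Tnfrsf1b by 1.50, and so did Tnfrsf14, the HVEM receptor for LIGHT and lymphotoxin alpha, by 0.79. Il2ra and Il2rb, the alpha and beta chains of the interleukin-2 receptor, each fell by 0.31, and Il2rg, the common gamma chain, was at -0.07 (adjusted p = 0.39). Ltbr, the lymphotoxin beta receptor, had 0.0756 and 0.298 CPM in co-cultured CD8 T cells, against 0.589 and 0.263 CPM in cells alone (adjusted p = 0.086). It was called lower without CD8 alone replicate 2 (-1.71, adjusted p = 0.029) and without co-cultured CD8 replicate 2 (-2.52, adjusted p = 0.007), and when all 8 libraries were fitted together (-1.23, adjusted p = 0.048).

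In ILC2s 5 of the 9 chains rose and 2 fell, with a median of 0.33. On the scale of the ILC2 markers 0 rose and 7 fell, beside 674 higher and 12805 lower of all 16739 genes. Ltbr had 1.53 and 2.25 CPM in co-cultured ILC2s, against 28.0 and 32.2 CPM in ILC2s alone, and fell by 3.79 (SE 0.20, adjusted p = 1.9e-08). Tnfrsf1a had 10.2 and 11.3 CPM in co-cultured ILC2s, against 113 and 119 CPM in ILC2s alone, and fell by 3.22. Both receptors are known from stromal and myeloid cells, whose summed markers were lower in the same libraries. A link between these falls was not tested. Il2rb rose by 1.17, Ifngr1 by 1.15, Il2ra by 0.77, Tnfrsf1b by 0.71 and Il2rg by 0.33. On the scale of the ILC2 markers Il2ra (-0.61), Tnfrsf1b (-0.67) and Il2rg (-1.05) were called lower, and Il2rb (-0.21, adjusted p = 0.088) and Ifngr1 (-0.23, adjusted p = 0.055) were not called. Ifngr2 (0.04, adjusted p = 0.77) and Tnfrsf14 (0.10, adjusted p = 0.72) did not pass, and Tnfrsf14 was at 0.56 (adjusted p = 0.021) without ILC2 alone replicate 2. The call of Il2rg was lost without ILC2 alone replicate 2 (0.32), without co-cultured ILC2 replicate 1 (0.29), with library totals (0.12, adjusted p = 0.31), with no low-count filter (adjusted p = 0.057) and when all 8 libraries were fitted together (0.18, adjusted p = 0.07).

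Of 14 genes known to drive Ifng transcription, 13 rose in CD8 T cells and none fell (30.2% and 30.7% of all genes). Their median log2 change was 0.55, while Ifng itself fell. At a mean of at least 5 CPM, the largest rises were of Il18rap (1.57) and Il18r1 (1.50), the chains of the interleukin-18 receptor, and of Runx1 (0.95). Il18rap had 21.0 and 19.8 CPM in co-cultured CD8 T cells, against 6.04 and 6.90 CPM in cells alone. In ILC2s 8 rose and 4 fell (3 and 9 on the scale of the ILC2 markers). Tbx21, the gene of T-bet, had 6.75 and 7.49 CPM in co-cultured ILC2s, against 88.0 and 98.7 CPM in ILC2s alone, and fell by 3.50. Eomes fell by 3.68 and Il12rb2, a chain of the interleukin-12 receptor, by 2.73. Runx3 rose by 2.12, Il18rap by 1.87 and Bhlhe40 by 1.71.

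The calcineurin, NFAT, AP-1, EGR and REL genes, which read out antigen receptor signalling at cytokine promoters, went both ways in CD8 T cells, with 6 of 17 higher and 6 lower and a median of -0.04. Both counts are near the share of all genes (30.2% higher and 30.7% lower). Jun rose by 1.9 on the log2 scale, with 260 and 296 CPM in co-cultured CD8 T cells, against 66.2 and 74.3 CPM in cells alone. Nfatc3 rose by 1.18 and Egr1 by 0.72, while Egr3 fell by 0.95 and Egr2 by 0.63. In ILC2s 8 rose and 6 fell (1 and 13 on the scale of the ILC2 markers). Fosl2 rose by 2.49, Junb by 1.48 and Nfatc2 by 1.32 (on the scale of the ILC2 markers Nfatc2 was at -0.06, and Junb at 0.10 with an adjusted p of 0.40, not called), and Egr2 fell by 4.95, Egr1 by 2.00 and Rel by 1.60.

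Of 6 repressors of Il2, 3 rose and 1 fell in CD8 T cells. Prdm1, the gene of Blimp-1, had 13.9 and 13.9 CPM in co-cultured CD8 T cells, against 5.96 and 6.06 CPM in cells alone, and rose by 1.13. Ikzf3, the gene of Aiolos, rose by 0.86 and Zeb1 by 0.83, and Crem fell by 0.56. In ILC2s 5 rose and 1 fell (1 and 4 on the scale of the ILC2 markers), with Prdm1 at 315 and 269 CPM in co-cultured ILC2s, against 41.1 and 39.2 CPM in ILC2s alone, a rise of 3.08.

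Proteins that bind cytokine mRNA were tested as 12 genes, of which 5 rose and 2 fell in CD8 T cells with a median of 0.14 (3 rose without co-cultured CD8 replicate 2). Zfp36, the gene of tristetraprolin, had 116 and 123 CPM in co-cultured CD8 T cells, against 62.9 and 72.6 CPM in cells alone, and rose by 0.74. Tristetraprolin is known to bind ATTTA repeats, but its binding to those shown above was not measured. Zc3h12a, the gene of the ribonuclease regnase-1, rose by 0.81 and Arid5a, known to oppose it, by 0.53, and Hnrnpd, the gene of AUF1, fell by 0.91. In ILC2s 6 rose and 2 fell (0 and 11 on the scale of the ILC2 markers), and 5 fell with library totals and in the fit of all 8 libraries. Zfp36l2, a relative of tristetraprolin, rose by 1.50 (0.12, adjusted p = 0.35, on the scale of the ILC2 markers), and Zc3h12a fell by 1.12. TNF is cut from the membrane by ADAM17. Adam17 rose by 0.66 in CD8 T cells, and Rhbdf2, its transport partner, by 0.89, and 3 of 3 tested genes of this list rose. In ILC2s 1 of 4 rose and 2 fell (0 and 4 on the scale of the ILC2 markers), and with single libraries left out 0 to 2 rose and 1 or 2 fell. The calls lost were of Adam17 (without ILC2 alone replicate 2 or co-cultured ILC2 replicate 1) and Rhbdf1 (without either ILC2 alone library or co-cultured ILC2 replicate 2). Timp3, an inhibitor of ADAM17 made by stroma, fell by 8.20 there and had 1.30 and 1.62 CPM in co-cultured ILC2s, against 487 and 507 CPM in ILC2s alone.

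Genes that respond to interferon gamma went both ways in CD8 T cells, with 9 of 26 higher and 10 lower and a median of -0.08. These counts are near the share of all genes (30.2% higher and 30.7% lower). Irf8 rose by 0.85, Irgm2 by 0.81 and Cd274, the gene of PD-L1, by 0.73, while the proteasome activator genes Psme2 and Psme1 fell by 1.18 and 0.80. In ILC2s 2 of 27 rose and 19 fell, with a median of -0.95, and on the scale of the ILC2 markers 0 rose and 27 fell. Cxcl9 had 0.351 and 0.395 CPM in co-cultured ILC2s, against 528 and 491 CPM in ILC2s alone. Cxcl10 had 0.309 and 0.333 CPM in co-cultured ILC2s, against 545 and 536 CPM in ILC2s alone. Both chemokines, which macrophages and stroma also make, fell by over 10 on the log2 scale (-10.19 and -10.49) and are at 15 to 19 reads in each co-cultured library. Gbp3 fell by 2.19, and Irf1 and Tap1 rose by 0.61 and 0.45 (at -0.77 and -0.93 on the scale of the ILC2 markers, and Tap1 at 0.23 with an adjusted p of 0.08 with library totals).

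Of 16 NF-kB subunits and targets, which TNF induces, 10 rose and 5 fell in CD8 T cells, with a median of 0.39. Birc2 (cIAP1) had 310 and 291 CPM in co-cultured CD8 T cells, against 77.3 and 82.3 CPM in cells alone, and rose by 1.83. Tnfaip3 (A20), a feedback inhibitor, rose by 1.48 and Bcl3 by 1.39, while Cd83 fell by 1.02, Nfkb2 by 0.69 and Nfkbia by 0.52. In ILC2s 7 of 17 rose and 5 fell (1 and 14 on the scale of the ILC2 markers). Tnfaip3 rose by 1.85 and Birc2 by 1.50 (0.12, adjusted p = 0.37, on the scale of the ILC2 markers), and Tnfaip2 fell by 6.60 and Icam1 by 1.31. Of the lymphotoxin signalling genes 6 of 9 were tested in each table, and Cxcl13, Ccl19 and Ccl21a, the classic targets of the lymphotoxin beta receptor in stroma, were listed in neither table. Map3k14, the gene of the kinase NIK, rose by 1.13 in CD8 T cells and by 1.23 in ILC2s (-0.15 on the scale of the ILC2 markers). Of the 6, 2 rose (1 without CD8 alone replicate 2) and 3 fell in CD8 T cells, among them Tnfsf14, the gene of LIGHT, by 0.98. In ILC2s 3 rose and 2 fell (1 and 4 on the scale of the ILC2 markers), with Traf3 higher by 1.82. The call of Chuk there (-0.33) was lost without either ILC2 alone library or co-cultured ILC2 replicate 2.

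Of 16 interleukin-2 and STAT5 targets, 5 rose and 10 fell in CD8 T cells, with a median of -0.28 (3 rose without co-cultured CD8 replicate 2). Bcl2l1, the gene of the survival protein BCL-XL, had 43.3 and 47.4 CPM in co-cultured CD8 T cells, against 107 and 97.6 CPM in cells alone, and fell by 1.25. Osm fell by 0.80 and Bcl2 by 0.40, while Socs3 rose by 2.00, Stat5b by 1.07 and Stat5a by 0.87. Stat5a and Stat5b encode the STAT5 proteins themselves and are among the 5 counted as higher. In ILC2s 8 rose and 4 fell, with a median of 0.31 (0 and 13 on the scale of the ILC2 markers, and 5 higher with library totals). Socs1, Myc and Socs3 fell by 1.82, 1.76 and 1.00, and Stat5b and Ccnd3 rose by 1.32 and 1.14 (at -0.06 and -0.24 on the scale of the ILC2 markers).

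**Figure D5:**
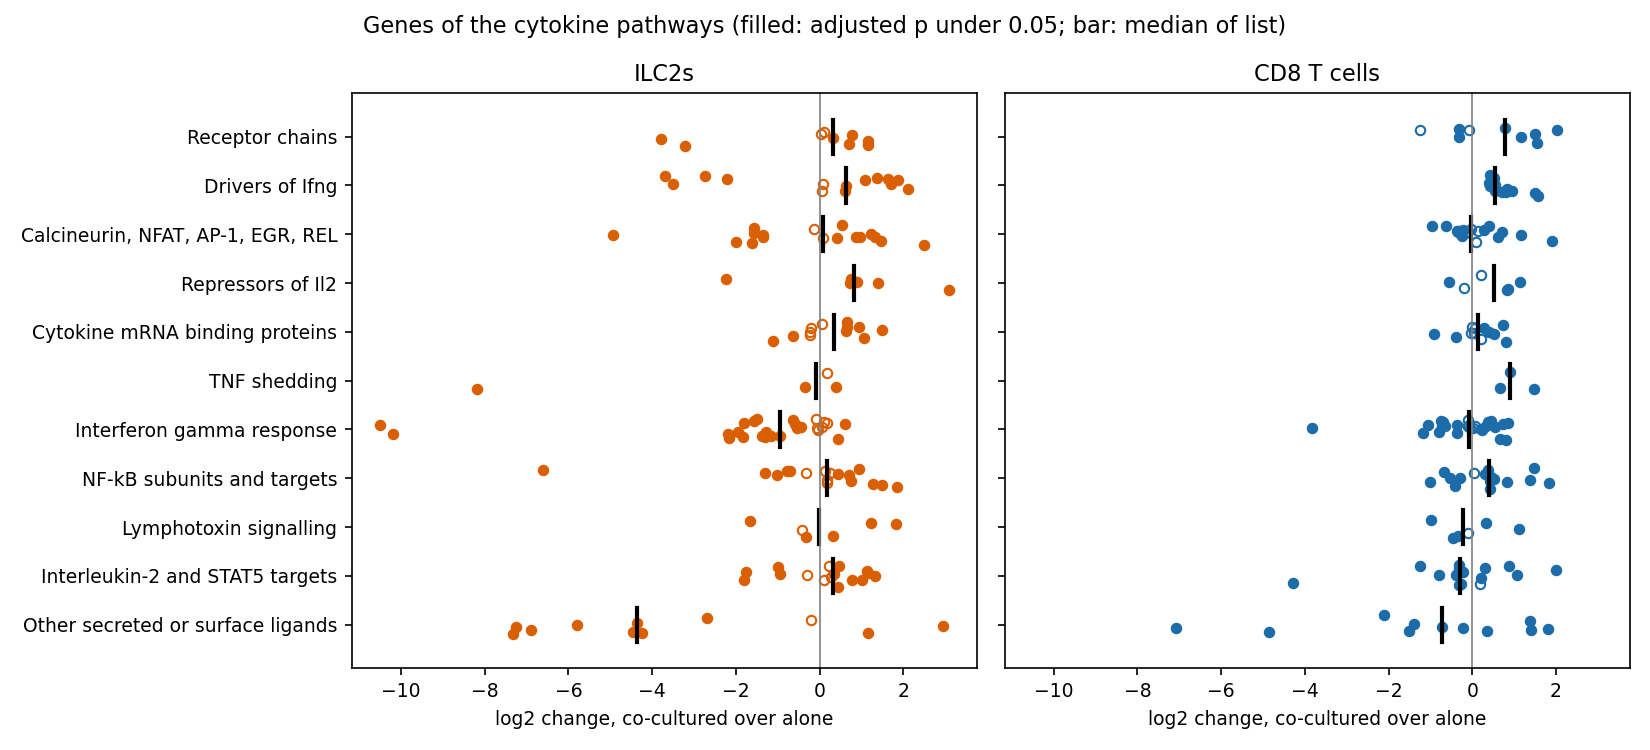
Log2 change, co-cultured over alone (x axis), of each tested gene of 11 lists in ILC2s (left, orange) and CD8 T cells (right, blue). Filled points have an adjusted p under 0.05 and the bar is the list's median, which is highest in CD8 T cells for TNF shedding (0.89) and lowest in ILC2s for other ligands (-4.36).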

How the data were processed

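Sorted cells gave RNA by Trizol extraction, and the SMART-Seq v4 kit for low input was used for the libraries, per the labels' protocols. The authors deposited raw read counts by gene symbol, in 1 table of 4 libraries for each cell type. StringTie 2.1.3b, SAMtools 1.9, HISAT2 2.1.0, Trimmomatic 0.38 and the build mm10 appear in the submitters' processing notes. Their roles, the annotation and the strand setting are not stated there. No deposited count is 0 (the lowest is 1), so a gene with 0 reads in a library is not listed. That keeps out any gene seen in 1 group only.

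The count test was edgeR's quasi-likelihood F test (version 4.0.16, R 4.3.3) after filterByExpr and TMM scaling, with Benjamini-Hochberg adjustment over all genes tested and a threshold of 0.05. Each cell type was fitted on its 4 libraries, and the interaction and the comparisons between cell types on all 8. Residual degrees of freedom were 2 per cell type and 4 in the joint fit, with prior ones of 10.4 (CD8 T cells), 9.23 (ILC2s) and 11.5 (joint), so a gene's p-value depends mostly on variance shared across genes. An SE is the log2 change divided by the square root of F. The scripts were tested on simulated counts. The 2 libraries of each group were compared and were further apart than sampling noise (chi-square of 13.9 to 28.75 per gene), and each library was used as 1 replicate. Replicate numbers were shared by the groups. Within a cell type, deviations of same-numbered co-cultured and alone libraries were not correlated (r = -0.03 in CD8 T cells and 0.04 in ILC2s), so no block was used. Whether same-numbered co-cultured ILC2s and CD8 T cells came from 1 culture is not stated. That pairing was not checked, and the joint fit treats these libraries as independent. Poisson intervals cover counting error only, because reads without molecular identifiers are not independent molecules.

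The members, gene lists and tests were chosen with earlier results of these data known. Named from each list were the up to 3 called genes with the largest change in each direction at a mean of at least 5 CPM, and all receptors. Profiles used log2 CPM with 0.5 reads added, over genes with at least 10 reads in 2 libraries of each table. Alternatives were other scalings (RLE, library totals, ILC2 markers), other filters, DESeq2 1.42.0, limma-voom (limma 3.58.1), a replicate block, 1 fit of all libraries and each library left out. Promoters are from RefSeq (GRCm38.p6) and transcripts from GENCODE vM21. Python 3.11.15, pandas 2.3.3, scipy 1.17.1 and matplotlib 3.10.9 were used for summaries and plots.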

Additional observations from a re-analysis of the deposited data

Results flagged for a closer look

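The change in co-culture differed between the cell types for 11 of the 13 member and receptor genes in both tables, by edgeR's interaction test over all 8 libraries (53.6% of all genes tested). Values are the log2 change in ILC2s minus that in CD8 T cells. Among the cytokines the difference was -2.89 for Ifng, 5.60 for Lta and 2.30 for Ltb. For the interferon gamma receptor it was -1.03 for Ifngr1 and -1.65 for Ifngr2. For the TNF and lymphotoxin receptors it was -4.54 for Tnfrsf1a, -0.95 for Tnfrsf1b, -2.71 for Ltbr and -0.86 for Tnfrsf14. For the interleukin-2 receptor it was 0.92 for Il2ra and 1.31 for Il2rb, and Il2rg did not pass (0.24, adjusted p = 0.095). Il2rg passed with RLE (0.36, adjusted p = 0.017), DESeq2 (0.36, adjusted p = 0.0048) and the stricter CPM filter (0.29, adjusted p = 0.042), and Il2rb lost its call on the scale of the ILC2 markers (0.11, adjusted p = 0.42). The calls of Ltbr and Tnfrsf14 were lost with single libraries left out. Ltbr gave -1.43 (adjusted p = 0.22) without co-cultured CD8 replicate 2. Tnfrsf14 gave -0.40 (adjusted p = 0.15) without ILC2 alone replicate 2, -0.74 without co-cultured ILC2 replicate 2, and -0.71 and -0.81 without co-cultured CD8 replicate 2 and CD8 alone replicate 1. The marker sums of the ILC2 libraries differ between co-cultured and alone as given above, and their part in these differences was not tested.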

How the results depend on the processing

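Of 302 alternative values of the members, 295 kept direction and side of the threshold. All 5 falls in CD8 T cells were kept in every setting that gave a value (12, and 10 for Il2, which has no value under the stricter CPM filter or in the fit of all libraries). Scaling to the ILC2 markers moved most: genes called in ILC2s became 674 higher and 12805 lower (5324 and 5766 in the TMM fit), in the interaction 501 and 11574 (3260 and 5064), between cell types in co-culture 2656 and 8898 (5113 and 5668), and between cells alone 9158 and 1586 (5099 and 4724). The median of all genes moved to -1.39, -1.33, -0.64 and 0.61 in these comparisons. Lta in ILC2s became -0.28, the Tnf interaction -1.31, Ltb between co-cultured cells 0.063 and Tnf between cells alone -0.22. The values between cell types depend on how this scaling was centred, as given above. Other ILC2 values that changed sign under this scaling, not all of them called there, were Ifngr1 -0.23, Ifngr2 -1.34, Tnfrsf1b -0.67, Tnfrsf14 -1.29, Il2ra -0.61, Il2rb -0.21, Il2rg -1.05, Adam17 -0.98, Ccnd3 -0.24, Ikzf3 -0.50, Irf1 -0.77, Map3k14 -0.15, Nfatc2 -0.064, Nfkb1 -0.11, Rc3h2 -0.33, Stat5b -0.057, Tap1 -0.93, Tial1 -0.44, Tnfsf11 -0.22 and Traf2 -1.06, and in the interaction Il2ra -0.29 and Il2rg -0.97. ILC2 calls lost under it with the sign kept were Junb 0.097, Birc2 0.12, Zfp36l2 0.12 and Zeb1 0.020. Adam17 and Traf2 in ILC2s also lost their calls with library totals (0.18 and 0.10), with no low-count filter (0.36 and 0.27) and in the fit of all libraries (0.25 and 0.16), Chuk with RLE and DESeq2 (-0.30 each) and Rhbdf1 with DESeq2 (-0.31). Values near 0 also changed sign elsewhere: with library totals Il2rg 0.011 in CD8 T cells and Ifngr2 -0.17 and Tnfrsf14 -0.12 in ILC2s, in the fit of all libraries Ifngr2 -0.11 and Tnfrsf14 -0.061, and the Tnf interaction was 0.0155 with RLE and 0.0154 with DESeq2. Library totals moved the share of calls that were higher to 38.3% (48.0% with TMM) in ILC2s and to 29.0% (39.2%) in the interaction.

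With 1 library left out, the Tnf interaction ran from -0.31 to 0.037, Ifngr2 in ILC2s from -0.069 to 0.13 and Tnfrsf14 from -0.26 to 0.56. Ifng in ILC2s ran from -8.86 to -5.90, its interaction from -5.08 to -2.10 and its value between co-cultured cells from -7.96 to -4.97, the deeper value without co-cultured ILC2 replicate 2 and the shallower without replicate 1. Leaving 1 library in a group assumes that it varies like the others. The replicate block called 9732 genes in CD8 T cells (9711 without it), 11056 in ILC2s (11090) and 8457 in the interaction (8324), and changed no member's call. Il2 in co-cultured CD8 T cells (5 reads in each library) is limited by depth. For Ifng in co-cultured ILC2s the Poisson intervals of 10.7 to 28.45 and 127 to 176 reads do not overlap, so the spread between these libraries is larger than counting error. Other causes of these changes were not tested.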
